A study of Mus musculus with 27 samples.

Results

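WDR43 was mapped on chromatin of mouse embryonic stem cells in 2 samples whose titles name different tagged forms of the protein: FB-WDR43 and cFB-KI-WDR43, where KI is read as knock-in. The peaks described here are every region listed for these maps, 41552 in the FB map and 21553 in the cFB-KI map, together 63105 of the 227913 regions in all 17 peak lists of the series. A peak was called shared where at least 1 bp of it overlapped a peak of the other map, and map-only where none did. All coordinates of peaks and loci are on mm9. Each map is 1 library, so a difference between them has no replicate check and no test between the maps was made. The intervals given are exact (Clopper-Pearson) 95% intervals of a share and cover counting error only.

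Both maps were made by chromatin immunoprecipitation sequencing (ChIP-seq) with the same FLAG antibody (Sigma F1804), from cells grown with serum and leukemia inhibitory factor, the cytokine that keeps them undifferentiated. Neither sample's labels give a treatment or a genotype beyond the title, or say whether a line is 1 clone, and they do not spell out FB or cFB. The study also mapped Fbio-tagged WDR43 after the solvent DMSO, the transcription inhibitor DRB or actinomycin D (1 library each). In cells with a control hairpin (shCtl) or a hairpin against WDR43 (shWDR43) it mapped RNA polymerase II (Pol II) and measured RNA by sequencing with spike-in, with 2 libraries per group for each. These RNA libraries are labelled wildtype. The pluripotency genes Pou5f1 and Nanog were abundant in the shCtl RNA, at 1038.4 and 1056.5 FPKM for Pou5f1 and 162.5 and 142.2 FPKM for Nanog (sequenced fragments per unit of transcript length and of library size).

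WDR43 is a WD-repeat protein of the small-subunit (SSU) processome, the nucleolar complex that assembles on the ribosomal RNA precursor and processes it into the RNA of the small ribosomal subunit. In yeast and human cells its subcomplex also acts where RNA polymerase I transcribes the ribosomal DNA. In embryonic stem cells the protein is also known from the promoters of genes transcribed by Pol II, where hypophosphorylated polymerase is recruited before serine 5 and serine 2 of its tail are phosphorylated.

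The sequences just upstream of 6 genes are shown as examples of loci with a peak in both maps, in 1 map or in neither. Each is the 250 bases before the gene's start in RefSeq on GRCm38.p6, on the plus strand, with CpG dinucleotides in capitals: Wdr43 at chr17:71615965-71616214, Nop58 at chr1:59684756-59685005, Wdr75 at chr1:45794916-45795165, Pou5f1 at chr17:35505782-35506031, Rpl24 at chr16:55966025-55966274, Nanog at chr6:122707239-122707488. The Wdr43 and Nop58 loci had a peak at an end in both maps, Wdr75 and Pou5f1 in the FB map only, Rpl24 in the cFB-KI map only and Nanog in neither. Pou5f1 was chosen after its values were seen.
Wdr43: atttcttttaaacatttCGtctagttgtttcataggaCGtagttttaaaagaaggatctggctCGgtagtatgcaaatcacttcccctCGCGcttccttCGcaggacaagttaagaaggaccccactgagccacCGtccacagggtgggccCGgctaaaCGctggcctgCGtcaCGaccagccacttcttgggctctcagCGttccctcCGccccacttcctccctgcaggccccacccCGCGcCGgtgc
Nop58: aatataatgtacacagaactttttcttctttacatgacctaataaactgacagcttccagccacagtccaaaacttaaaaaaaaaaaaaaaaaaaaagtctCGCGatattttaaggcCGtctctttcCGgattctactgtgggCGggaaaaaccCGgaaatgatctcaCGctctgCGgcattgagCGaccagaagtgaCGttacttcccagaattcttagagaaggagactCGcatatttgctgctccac
Wdr75: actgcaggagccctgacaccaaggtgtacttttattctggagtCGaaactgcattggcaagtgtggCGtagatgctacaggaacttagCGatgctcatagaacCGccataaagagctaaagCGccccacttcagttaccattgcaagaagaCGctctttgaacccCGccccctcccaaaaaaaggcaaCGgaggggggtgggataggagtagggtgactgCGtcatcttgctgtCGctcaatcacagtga
Pou5f1: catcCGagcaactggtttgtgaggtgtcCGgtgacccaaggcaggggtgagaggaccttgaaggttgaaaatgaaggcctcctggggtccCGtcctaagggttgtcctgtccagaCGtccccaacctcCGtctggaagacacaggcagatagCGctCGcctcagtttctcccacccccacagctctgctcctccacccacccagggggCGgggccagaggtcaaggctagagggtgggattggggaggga
Rpl24: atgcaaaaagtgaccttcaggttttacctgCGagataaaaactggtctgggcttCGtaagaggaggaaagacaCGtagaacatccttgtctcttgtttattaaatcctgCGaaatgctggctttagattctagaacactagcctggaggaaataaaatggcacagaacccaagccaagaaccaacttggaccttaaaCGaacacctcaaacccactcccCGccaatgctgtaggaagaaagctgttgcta
Nanog: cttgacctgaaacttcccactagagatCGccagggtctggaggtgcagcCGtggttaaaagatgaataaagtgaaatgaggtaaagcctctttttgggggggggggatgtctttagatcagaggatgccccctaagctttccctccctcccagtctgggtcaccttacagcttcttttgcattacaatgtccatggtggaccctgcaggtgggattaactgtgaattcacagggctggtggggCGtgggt
CpG numbered 16 in the Wdr43 window, 11 in Nop58, 10 in Wdr75, 8 in Pou5f1, 6 in Rpl24 and 3 in Nanog, against a median of 6 over the 27025 promoters of the RefSeq table.

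The cFB-KI map held fewer and wider peaks. The median width was 1030 bp (quartiles 787 and 1370) in the cFB-KI map and 318 bp (231 and 507) in the FB map, and the maps covered 24.8 Mb and 17.4 Mb. In all 19784 FB peaks, or 47.6% (47.1 to 48.1), overlapped a cFB-KI peak, and 15775 cFB-KI peaks, or 73.2% (72.6 to 73.8), overlapped an FB peak. This left 21768 FB-only and 5778 cFB-KI-only peaks. The sequence common to both covered 10.4 Mb, which was 59.8% of the FB map and 41.9% of the cFB-KI map. With the 20000 highest-scoring peaks of each list, the shares were 66.8% and 60.8%, so that the order of the maps turned.

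Where the maps met, the FB peak usually lay inside the cFB-KI peak. Of 19841 overlapping pairs, 83.2% had the FB peak wholly inside. A single FB peak lay under 12388 of the shared cFB-KI peaks, 2823 covered 2 FB peaks and 564 covered 3 or more. In the 12312 one-to-one pairs the centres were a median 90.8 bp apart, and the median widths were 546.5 bp for FB and 1060 bp for cFB-KI. Across these pairs, which share their position and are no independent replicates, the Spearman correlation of the scores was 0.525. Near the overlap limit, 132 FB peaks were shared by at most 50 bp (median score 68.2) and 130 unshared ones lay at most 50 bp from a cFB-KI peak (median score 67.1).

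Map-only peaks were narrow and low in score within their own list. The score is the authors' own value per peak and is compared here only inside a list, where every value was at least 50. In the FB map the median score was 157 for shared and 71.5 for FB-only peaks, with median widths of 467 and 263 bp. In the cFB-KI map the median scores were 138 and 71.1 and the median widths 1119 and 810 bp. By score, the shared portion was 27.1% in the lowest 10% of FB peaks and 93.6% in the highest 10%. In the cFB-KI map it was 40.2% and 95.04%. An FB-only peak lay a median 20.7 kb from the nearest cFB-KI peak, and a cFB-KI-only peak 15.3 kb from the nearest FB peak.

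**Figure D1:**
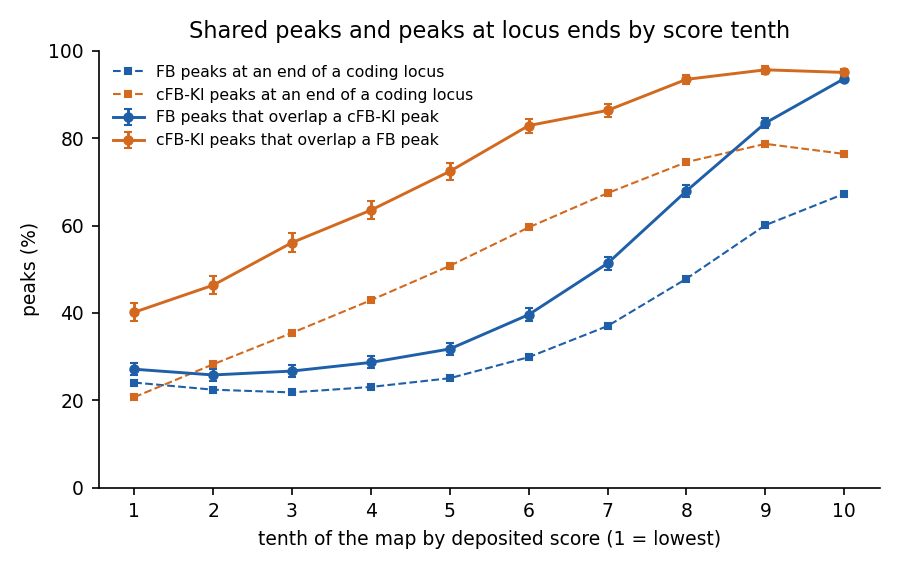
Percent of peaks (y axis) by deposited score, in 10 equal groups of each map's peaks (x axis, 1 is the lowest). Solid lines with circles are peaks that overlap the other map, with exact 95% intervals of counting error, and dashed lines with squares are peaks within 1 kb of an end of a protein-coding locus. The shared portion reaches 93.6% of FB and 95.04% of cFB-KI peaks in the highest group.

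Shared peaks sat mostly at ends of genes and FB-only peaks mostly elsewhere. The table of loci gives no strand, so an end is either side of a protein-coding locus, within 1 kb. Such ends held 62.0% (61.4 to 62.7) of shared FB peaks and 63.4% (62.6 to 64.2) of shared cFB-KI peaks. They held 12.1% (11.6 to 12.5) of FB-only and 26.4% (25.3 to 27.6) of cFB-KI-only peaks. A further 30.6% of FB-only and 30.0% of cFB-KI-only peaks lay inside coding loci, and 46.3% and 33.0% lay outside every locus of the table.

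The position and the score each went with sharing. Peaks were put into 4 equal groups by score within their map. Among FB peaks of the lowest score group, 64.2% (62.3 to 66.2) of those at an end were shared, against 17.3% (15.99 to 18.7) of those inside a locus and 13.9% (13.0 to 14.9) of those outside. In the highest score group these shares were 95.7%, 71.8% and 68.5%. The end shares of map-only peaks depended on which peaks were kept: among the 1344 cFB-KI-only peaks with a score of at least 100 it was 39.7%, where FB-only peaks gave 15.2%, and with 400 bp around each centre the FB-only share was 18.7%.

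Hypophosphorylated Pol II overlapped shared peaks far more often than map-only peaks of either map. The antibody 8WG16 marks hypophosphorylated Pol II (hypoP), the form at promoters, and its shCtl libraries 1 and 2 listed 19542 and 19561 peaks. Of shared FB peaks 73.8% and 74.0% overlapped a hypoP peak of library 1 and of library 2, against 23.8% and 24.3% of FB-only peaks. Of shared cFB-KI peaks 74.3% and 74.2% did, against 18.5% and 19.3% of cFB-KI-only peaks. The same order stood within score groups of the FB map. For library 1 it was 52.9% of shared and 17.8% of FB-only peaks in the lowest group, and 88.8% and 50.9% in the highest. Of map-only peaks with a score of at least 100, 37.3% of the 5659 FB-only and 30.8% of the 1344 cFB-KI-only peaks overlapped library 1. In the other direction, 18.3% of the hypoP peaks of library 1 met an FB peak and no cFB-KI peak, 5.20% the reverse, and 17.0% met neither.

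The WDR43 map of DMSO-treated cells divided FB peaks of like score differently than hypoP Pol II did. It overlapped 61.4% of shared FB peaks, 35.9% of FB-only, 72.6% of shared cFB-KI and 15.7% of cFB-KI-only peaks. Within the 4 score groups of the FB map, from the lowest to the highest, the DMSO map overlapped 21.3%, 34.6%, 56.2% and 86.2% of shared peaks and 19.1%, 32.4%, 52.8% and 78.7% of FB-only peaks. Shared and FB-only peaks of like score thus lay within 8 percentage points of each other in the DMSO map. In the highest score group of the cFB-KI map the DMSO map overlapped 86.6% of shared and 42.3% (36.2 to 48.6) of cFB-KI-only peaks. Of map-only peaks with a score of at least 100, it overlapped 61.5% of FB-only and 25.7% of cFB-KI-only peaks. After DRB the map listed 4426 peaks, which overlapped 11.7% of shared FB, 4.76% of FB-only, 14.3% of shared cFB-KI and 1.11% of cFB-KI-only peaks.

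**Figure D2:**
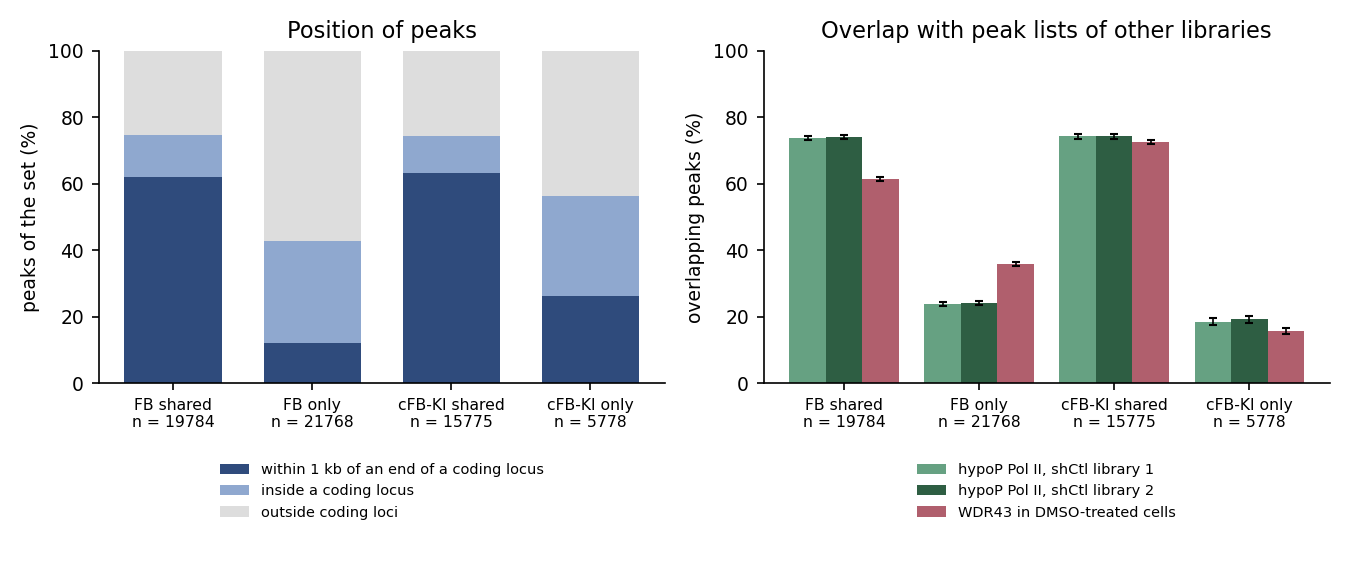
Left: position of the peaks of the 4 sets as percent of each set (stacked bars, n under each bar). Right: percent of each set that overlaps a peak of hypoP Pol II in shCtl cells or of WDR43 in DMSO-treated cells, with exact 95% intervals of counting error. FB-only peaks overlap the DMSO map (35.9%) more often than hypoP Pol II (23.8% and 24.3%).

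Both maps centred on the 5′ end of expressed genes. For 7870 coding loci longer than 4 kb with a strand from RefSeq and a mean shCtl level of at least 1 FPKM, 84.5% had an FB peak and 83.9% a cFB-KI peak within 1 kb of the 5′ end. At the 3′ end the values were 8.55% and 6.43%. At the start itself 74.8% were covered by an FB peak and 81.6% by a cFB-KI peak, and coverage stayed above 50% of its highest value over 600 bp in the FB and 1100 bp in the cFB-KI map. For 5220 loci under 1 FPKM the start was covered in 19.7% and 29.7%.

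**Figure D3:**
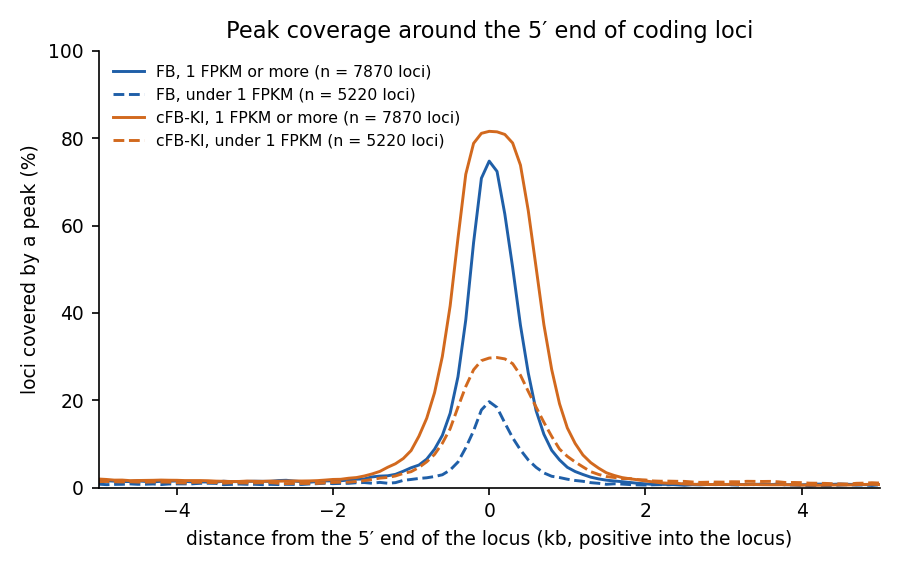
Percent of coding loci covered by a peak (y axis) at each distance from the 5′ end (x axis, kb, positive into the locus), for the FB and cFB-KI maps and for loci of at least 1 FPKM (solid) and under it (dashed). Both maps peak at the 5′ end, and the cFB-KI profile is the wider, 1100 against 600 bp at 50% of its height. Only loci matched to RefSeq are shown.

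Of the 20509 protein-coding loci of the RNA table, 10764 (52.5%) had an end peak in both maps, 1247 (6.08%) in the FB map only, 1339 (6.53%) in the cFB-KI map only and 7159 (34.9%) in neither. These are shares over loci of every RNA level. Both peaks were more common at higher levels, so the gene lists below are also set beside loci of like level. A locus without an end peak of a map can still carry peaks of that map elsewhere on the locus. Loci with an end peak in both maps had the highest RNA levels. Their median level was 7.5 and 7.2 FPKM in shCtl libraries 1 and 2. It was 2.1 and 2.0 FPKM for loci with an FB end peak only, 0.5 and 0.4 FPKM for those with a cFB-KI end peak only, and 0 in both libraries for those with neither. The order of the 4 classes was the same in both libraries, with gaps above the difference between the libraries. In bulk RNA a lower level can mean fewer cells that use a gene or less RNA per cell, and these cannot be told apart. The median over both libraries for loci with the FB peak only was 3.08 FPKM with a 500 bp window and 1.20 FPKM with a 2 kb window.

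Of loci at 20 to 100 FPKM, 85.4% had an end peak in both maps, and of loci listed at 0 FPKM 8.53% did. Among loci above 0 and under 1 FPKM, 11.4% had an end peak in the cFB-KI map only and 8.05% in the FB map only. At over 100 FPKM the order was the opposite, with 2.14% and 7.63%.

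The tagged gene itself carried both. An 890 bp FB peak at chr17:71965285-71966174 and a 1197 bp cFB-KI peak at chr17:71965168-71966364 lay over the start of the Wdr43 locus at chr17:71965555-72008371. Wdr43 stood at 82.3 and 78.2 FPKM in shCtl and 21.2 and 20.7 FPKM in shWDR43, so the groups did not overlap. The fold change was -1.89 ± 0.12 (SE) on the log2(FPKM + 1) scale, with an adjusted p of 0.000751 (limma).

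Genes of the SSU processome, the complex of WDR43, mostly had end peaks in both maps. Of the 37 members 33 (89.2%) had both, beside 85.4% of all coding loci at 20 to 100 FPKM, 2 (Krr1 and Wdr75) the FB peak only, none the cFB-KI peak only and 2 (Nol10 and Utp14a) neither. Nol10 did carry 2 FB peaks and 1 cFB-KI peak elsewhere on its locus. All 37 members had a hypoP end peak in both shCtl libraries, where 80.4% to 89.5% of coding loci at 1 FPKM or more did by autosome. Nop56 and Nop58, core proteins of the box C/D particles that guide RNA methylation, were the highest with both. For Nop58 the libraries read 335 and 271.8 FPKM in shCtl and 185.3 and 137.7 in shWDR43, and its FB and cFB-KI peaks were 625 and 611 bp wide.

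Wdr75, which codes for a partner of WDR43 in the same subcomplex, had an FB end peak and no cFB-KI end peak. Its 984 bp FB peak at chr1:45851743-45852726 ranked in the top 4.85% of FB scores, and the nearest cFB-KI peak lay 102 kb away. Wdr75 read 102.1 and 76.6 FPKM in shCtl and 47.7 and 33.3 in shWDR43, so the groups did not overlap. Utp14a, on the X chromosome, had no end peak in either map at 58.4 and 47.8 FPKM in shCtl.

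Of 29 RNA polymerase I and nucleolar genes, 23 (79.3%) had both peaks, beside 85.4% of all coding loci at 20 to 100 FPKM. The FB peak only was at 3 (Nhp2, Nop10 and Polr1b), the cFB-KI peak only at 2 (Polr1a and Polr1e) and neither at 1 (Dkc1, X-linked). Nhp2, Nop10 and Dkc1 code for proteins of the box H/ACA particles that guide pseudouridylation, and Gar1, which codes for the other core protein of these particles, had both peaks. The nearest cFB-KI peak lay 3449 bp from Nhp2, 2370 bp from Nop10 and 90391 bp from Dkc1. Dkc1 did carry 1 FB peak elsewhere on its locus. Polr1a, the largest subunit of RNA polymerase I, had a 752 bp cFB-KI peak at chr6:71858421-71859172 and no FB peak within 77728 bp of the locus. It read 31.7 and 30.1 FPKM in shCtl and 24.6 and 22 in shWDR43.

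Ribosomal protein genes had the highest median RNA level of the lists. Both peaks were at 68 of 79 (86.1%), beside 87.3% of all coding loci over 100 FPKM. The FB peak only was at 8, the cFB-KI peak only at 1 (Rpl24) and neither at 2. The 8 included Rpl13a, Rpl28, Rpl32, Rpl36a, Rpl39, Rpl8 and Rps15. The mean shCtl levels of the 8 ran from 1198 to 2479 FPKM, so an absent cFB-KI end peak did not go with a low level. Rpl24 had a 709 bp cFB-KI peak at chr16:55966269-55966977 and an FB peak on the locus outside the end windows. Rpl24 read 1169.7 and 1201.7 FPKM in shCtl and 632.7 and 601.7 in shWDR43. The list of small nucleolar RNA hosts, which as drawn up also held Rn45s (no such host), had both peaks in 17 of 19 with Rn45s among them, and the FB peak only in Snhg3 and Snhg12. At 20 to 100 FPKM, where the host list's median level lay, 85.4% of all coding loci had both.

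Of 32 genes of pluripotency 13 (40.6%) had both peaks, 11 (34.4%) the FB peak only, 1 (Lefty2) the cFB-KI peak only and 7 neither. The list's median level was 67.2 and 62.15 FPKM in shCtl libraries 1 and 2, and at 20 to 100 FPKM 85.4% of all coding loci had both peaks and 5.78% the FB peak only. A hypoP end peak in both shCtl libraries was present at 20 of the 32. By autosome, 80.4% to 89.5% of coding loci at 1 FPKM or more had one. The 13 with both included Sox2, Klf2, Klf4, Klf5, Zfp42 and Utf1. The 11 with the FB peak only were Dppa2, Dppa5a, Myc, Mycn, Nr0b1, Nr5a2, Pou5f1, Prdm14, Sall4, Tcl1 and Tdgf1, of which 7 had no cFB-KI peak within 20 kb. Nr5a2 did carry 1 cFB-KI peak elsewhere on its locus.

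Pou5f1, which codes for the core pluripotency factor OCT4, had 3 FB peaks and no cFB-KI peak on its locus and 1 kb around it, and the nearest cFB-KI peak was 5682 bp away. It read 1038.4 and 1056.5 FPKM in shCtl and 554 and 459.1 in shWDR43. Dppa5a, an RNA-binding protein gene of undifferentiated cells, read 2256.7 and 2346.6 FPKM in shCtl with no cFB-KI peak within 20 kb. Its 269 bp FB peak at chr9:78215885-78216153 was weak, with 88.5% of FB peaks at or above its score. Nanog had no peak of either map on its locus at 162.5 and 142.2 FPKM in shCtl, with the nearest FB peak 4286 bp and the nearest cFB-KI peak 10705 bp away. Esrrb and Tet1, chosen after their values were seen, had no end peak and did carry peaks elsewhere on the locus, 12 FB and 2 cFB-KI at Esrrb and 2 FB and 1 cFB-KI at Tet1.

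Developmental regulators, lineage genes that are mostly silent in these cells, carried end peaks of both maps at 28 of 45, the FB peak only at 3, the cFB-KI peak only at 4 and neither at 10. Their median level was 0.3 and 0.2 FPKM in shCtl, and 9 of the 45 had a hypoP end peak in both shCtl libraries. A share is known only for the 5′ end of loci longer than 4 kb. Under 1 FPKM 13.9% and 14.0% of these had a hypoP peak of shCtl library 1 and 2. Among all coding loci above 0 and under 1 FPKM, 40.9% had both WDR43 peaks. Gbx2 and En2, homeobox genes, were the highest with both, at 52.7 and 58.6 FPKM for Gbx2 in shCtl and 3.1 and 2.9 FPKM for En2. Neurod1 had the FB peak only at 3.9 and 4.5 FPKM, and Gata6 the cFB-KI peak only at 0.6 FPKM in both libraries. Otx2 had neither at 46.8 and 45.6 FPKM, with an FB peak 1981 bp and a cFB-KI peak 2473 bp from its locus.

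Replication-dependent histone genes had both peaks in 60 of the 62 found among 66 listed, beside 69.0% of coding loci at 1 to 5 FPKM. The FB peak only was at Hist1h1a and Hist1h1b. The histone genes lie in clusters, so neighbours can share a peak, and their messages mostly lack the poly(A) tail that mRNA purification kits capture. Hist1h2ao, the highest of them, lay under a 2345 bp FB peak in the top 0.0818% of FB scores and a 2069 bp cFB-KI peak in the top 8.21% of cFB-KI scores. Genes of Pol II and its pausing factors had both peaks in 33 of the 36 found among 44 listed, and the FB peak only at the Pol II subunit genes Polr2e, Polr2g and Polr2k. At 20 to 100 FPKM, where this list's median level lay, 85.4% of all coding loci had both. Of 26 p53 targets 20 (76.9%) had both, 3 the FB peak only and 3 neither. Of all coding loci 81.6% had both at 5 to 20 FPKM, and 85.4% at 20 to 100 FPKM. Of 19 fibroblast markers, listed to show other cells in the culture, 6 had both, 1 the FB peak only, 1 the cFB-KI peak only and 11 neither. At 1 to 5 FPKM, where the median level of these markers lay, 69.0% of all coding loci had both.

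**Figure D4:**
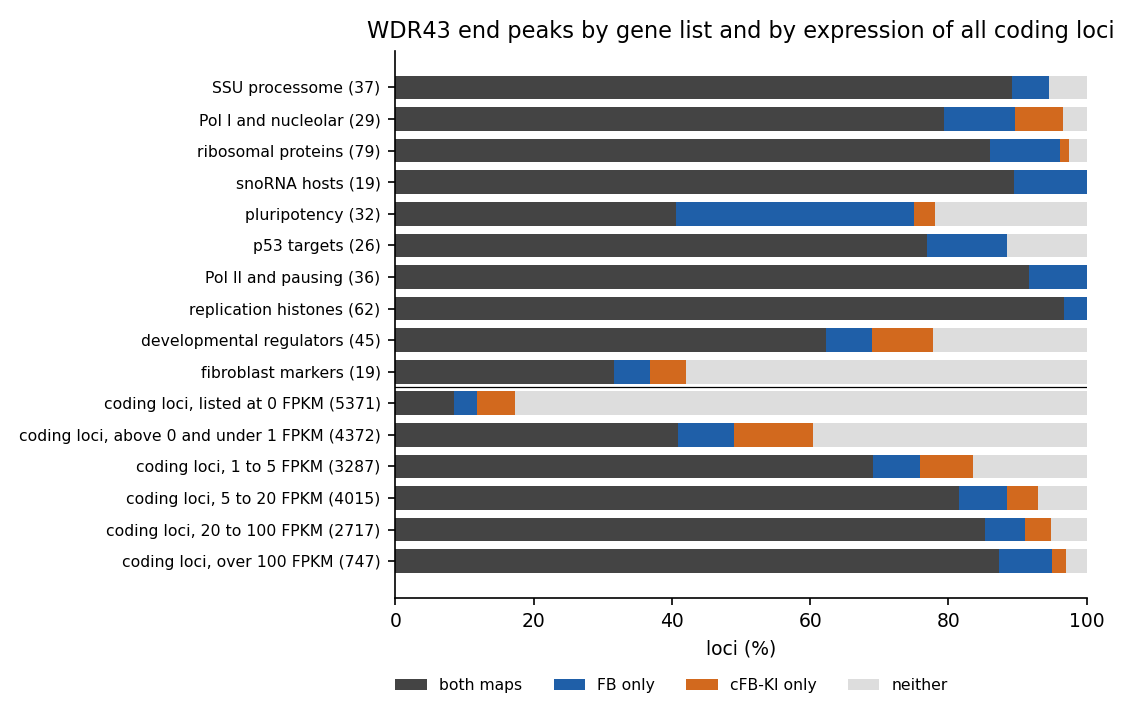
Percent of loci (x axis) with an end peak in both maps, the FB map only, the cFB-KI map only or neither, for 10 gene lists (above the line) and for all coding loci by mean shCtl FPKM (below it), with the number of loci in parentheses. The pluripotency list has both peaks at 40.6%, against 85.4% of all coding loci at 20 to 100 FPKM.

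Chromosomes differed in how far the maps matched, and the X chromosome was below all autosomes in end peaks at expressed loci. On the X 74.0% (71.2 to 76.6) of FB peaks had no cFB-KI peak, where the autosomes ran from 40.2% to 59.7%. Of its cFB-KI peaks 18.6% (14.2 to 23.7) had no FB peak, where the autosomes ran from 18.8% to 37.9%. Of 366 X-linked coding loci at 1 FPKM or more, 43.2% (38.0 to 48.4) had an FB end peak and 12.8% (9.59 to 16.7) a cFB-KI end peak. On the 19 autosomes these shares ran from 78.8% to 94.4% (median 87.9%) for FB and from 79.7% to 92.5% (median 87.2%) for cFB-KI. The DMSO map had an end peak at 20.2% of the X-linked loci (autosomes 58.1% to 88.2%) and hypoP Pol II in both shCtl libraries at 70.8% (autosomes 80.4% to 89.5%). The median level of these loci was 8.2 and 7.5 FPKM on the X, where the autosomes had medians of 8.80 to 14.0 FPKM for the mean of both libraries.

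All 9 X-linked members of the lists lacked a cFB-KI end peak, among them Utp14a, Dkc1, Rpl10, Rpl36a, Rpl39, Rps4x, Nr0b1 and Eda2r. Their nearest cFB-KI peak lay 23.7 to 415 kb away. Rpl36a, Rpl39 and Nr0b1 had an FB end peak. All 9 had a hypoP end peak in both shCtl libraries, beside 70.8% of X-linked coding loci at 1 FPKM or more. Their mean shCtl levels ran from 21.65 to 2479 FPKM. Rps4x, a ribosomal protein gene with neither peak, read 1682 and 1560.5 FPKM in shCtl, a level at which 87.3% of all coding loci (over 100 FPKM) had both.

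Chromosome 11 held more of the cFB-KI map. It carried 10.3% of cFB-KI peaks, 7.28% of FB peaks, 6.55% of DMSO peaks and between 6.17% and 8.82% of the peaks of each Pol II list. Of its cFB-KI peaks 37.9% (35.8 to 39.9) had no FB peak, where the other autosomes ran from 18.8% to 33.3%, and of its FB peaks 40.2% (38.4 to 41.9) had no cFB-KI peak, where the others ran from 47.3% to 59.7%. The higher unshared portion of cFB-KI peaks was spread along the chromosome. All 13 of its bins of 10 Mb with at least 20 cFB-KI peaks had an unshared portion above 24.2%, the median of the 236 such bins of other autosomes. These 13 ran from 27.7% to 50.5%, within the range of the 236 others, 0% to 58.1%. The cFB-KI-only peaks of chromosome 11 had a median width of 1048.5 bp, against 810 bp for all cFB-KI-only peaks.

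At expressed coding loci the highest share with the cFB-KI end peak only was on chromosome 6, at 12.6%, beside 5.73% on chromosome 11 and a median of 4.60% over the autosomes. Chromosome 6 also had the lowest share with an FB end peak among autosomes, 78.8%, and 33.3% of its cFB-KI peaks had no FB peak.

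Chromosome 8 showed the reverse of chromosome 11. It held 6.75% of FB peaks, 7.33% of DMSO peaks, 5.34% of cFB-KI peaks and 4.93% to 5.88% of the peaks of each Pol II list. There 59.7% (57.8 to 61.5) of FB peaks had no cFB-KI peak, the highest of the autosomes, and 18.8% (16.5 to 21.1) of cFB-KI peaks had no FB peak, the lowest. Without chromosomes 8, 11 and X, an alternative added after the data were seen, 47.8% of FB and 73.9% of cFB-KI peaks were shared.

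**Figure D5:**
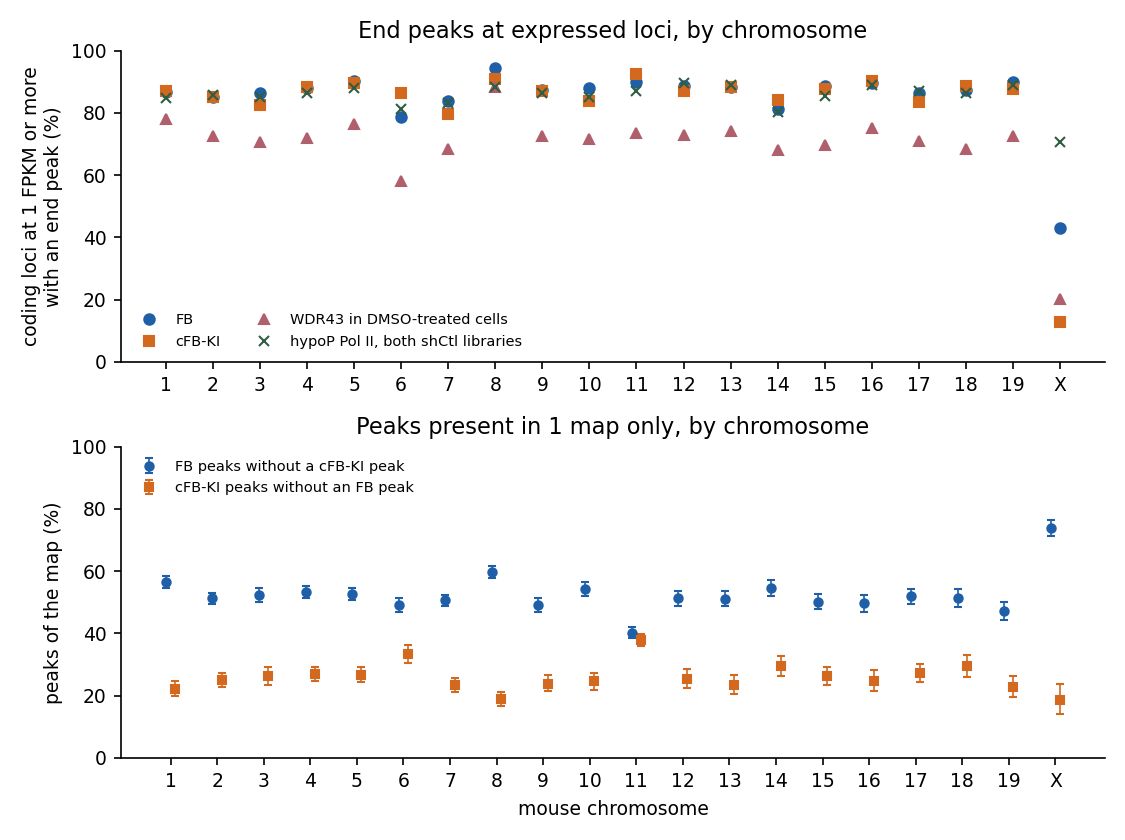
By mouse chromosome (x axis): above, percent of coding loci of at least 1 FPKM with an end peak in each WDR43 map and in both hypoP shCtl libraries; below, percent of FB and of cFB-KI peaks with no peak in the other map, with exact 95% intervals of counting error. The X stands below every autosome in all 4 series of the upper panel, and among autosomes the FB-only and cFB-KI-only shares come closest on chromosome 11 (40.2% and 37.9%).

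The 3 shared regions that ranked highest by score in both maps lay at Rn45s, the locus of the ribosomal RNA precursor (FB peak chr17:39979880-39985805, cFB-KI peak chr17:39979754-39986023), at Cmss1 and Filip1l on chromosome 16 (FB peak chr16:57391157-57391850) and at an unnamed locus on chromosome 3 (FB peak chr3:5860242-5860960). All 3 also had a peak in every one of the 15 other lists, Pol II included. Rn45s has near-identical copies and the RNA table lists it at 0 in all 4 libraries, so neither the peaks nor the RNA can be placed on 1 copy.

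The highest FB-only score, 3100, was tied over 6 peaks, and the widest 3 of these lay in the Rn4.5s locus, chr6:47604920-47702924. The FB map had 20 peaks there, 18 of them FB-only. The cFB-KI map had 1 peak there, with a score of 65.7. The DMSO, DRB and actinomycin D maps had 9, 16 and 10, and none of the 4 hypoP lists had any. Lists of Pol II phosphorylated at serine 5 had 3 and 1 in shCtl libraries 1 and 2, and 2 and 0 in shWDR43 libraries 1 and 2. Those of Pol II phosphorylated at serine 2 had none. The locus read 0.2 and 0.5 FPKM in shCtl and 0.7 and 0.2 FPKM in shWDR43.

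The 3 named cFB-KI-only peaks were the highest in score and the widest 2 of 3 that tied at 3100. They lay at Aida on unplaced sequence of chromosome 1, at Atpase6 (chr1:24618202-24623125) and outside the loci of the table at chr15:74915598-74917751. Peaks of 14, 13 and 14 of the 15 other lists met them.

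The RNA of the loci with and without peaks was compared after WDR43 knockdown. Over all genes tested, 42.7% were lower and 6.1% higher in shWDR43 (limma, adjusted p under 0.05). With both end peaks, 45.8% of 8540 tested loci were lower and 5.07% higher, with the FB peak only 44.2% of 720 and 8.75%, with the cFB-KI peak only 34.7% of 551 and 9.98%, and with neither 33.7% of 959 and 12.8%. The median log2 fold changes were -0.41, -0.41, -0.27 and -0.30, against -0.39 over all genes tested. With every library centred on its median, a shift of 0.33 for all genes, they were -0.076, -0.076, 0.058 and 0.031.

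The order of the classes was not the same at every level. Among loci in the highest of 5 equal groups by expression, 80.9% with both peaks, 76.3% with the FB peak only, 70.6% with the cFB-KI peak only and 68.9% with neither were lower. In the lowest group the shares were 12.4%, 12.3%, 14.2% and 16.3%. With 2 libraries a group, leaving out any 1 of the 4 left no gene past the adjusted threshold in limma, with 3928 to 4902 lower and 576 to 730 higher at an unadjusted p under 0.05. Whether the replicates came from separate cultures is not stated beyond the header's "biological replicates", so the p-values measure the spread between these libraries.

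Among the lists, genes lower in shWDR43 numbered 34 of 37 for the SSU processome, 27 of 29 for RNA polymerase I and the nucleolus, 78 of 78 tested for ribosomal proteins, 13 of 18 tested for small nucleolar RNA hosts, 27 of 32 for pluripotency and 26 of 36 for Pol II and pausing, with none higher in any of them. Of p53 targets 13 of 26 were higher and 2 lower, of histones 14 of 55 tested were higher and 11 lower, and of developmental regulators 5 of 12 tested were lower and 2 higher. Over all genes tested 42.7% were lower and 6.1% higher, and among coding loci with both peaks in the highest of the 5 expression groups 80.9% were lower. Within the pluripotency list, 10 of the 13 with both peaks and 11 of the 11 with the FB peak only were lower. Lefty2, a signalling antagonist of the Nodal pathway and the single member with the cFB-KI end peak only, also had 2 FB peaks on its locus outside the end windows. It read 35.9 and 40.7 FPKM in shCtl and 3.2 and 3 in shWDR43, a change of -3.26 ± 0.14 (SE) with an adjusted p of 0.000717. Fibroblast markers summed to 338 and 361 FPKM in shCtl and 350 and 470 in shWDR43. Of the 19 markers 13 were at 1 FPKM or more in each shCtl library, and 14 and 15 in shWDR43 libraries 1 and 2. Decorin and lumican (Dcn and Lum) were at 0 in all 4 libraries, and 4 of 14 tested markers were higher and 2 lower. Their part in these results was not tested.

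CpG content differed between the classes of expressed loci. RefSeq promoters were matched for 81.1% of loci of at least 1 FPKM with both peaks, 81.0% with the cFB-KI peak only and 81.5% with neither. For the FB peak only the match was 79.9%, under the 80% needed, so that check is void, as it is for loci under 1 FPKM. The median number of CpG in 250 bases was 18 with both peaks, 12 with the cFB-KI peak only, 6 with neither and 17 over all expressed coding loci with a promoter. Motifs were searched on both strands. Shares follow for both peaks, the cFB-KI peak only and neither, beside all expressed coding loci and then all promoters of the table. GGGCGG stood in 66.1%, 54.6% and 37.2%, beside 62.0% and 33.0%. CCGGAAG stood in 16.8%, 10.8% and 7.85%, beside 15.5% and 7.07%. TATAAA stood in 5.13%, 6.55% and 12.8%, beside 6.05% and 13.0%. CCAAT stood in 36.4%, 51.0% and 43.3%, beside 38.0% and 34.5%, so that loci with both peaks were below the first background and above the second. CACGTG stood in 9.76%, 5.42% and 6.72%, beside 9.08% and 6.04%. ATTTGCAT stood in 1.33%, 0.903% and 1.62%, beside 1.36% and 1.62%. A match describes letters in this window and is not a site of binding.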

How the data were processed

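The authors deposited 1 list of peaks per ChIP library with a score for each peak, and the peak names carry the name of the caller MACS. Reads were aligned with Bowtie2 to mm9, per the submitters' processing notes. Its threshold and control were not given in the sources used here. The read depth of each map is unknown. For RNA the authors deposited 1 value per gene and library for 38582 loci. TopHat and Cufflinks are named in the submitters' processing notes, and FPKM was inferred from Cufflinks. The header names 2 biological replicates per group. The title names spike-in, the scaling is not given, and no scaling was added here. All columns of values per sample were mapped (0 left unused).

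Overlaps used at least 1 bp, and an end was 1 kb to either side of a locus end. Intervals were checked on simulated data against bedtools 2.31.1. The RNA test was limma (version 3.58.1, under R 4.3.3) with its trend option and Benjamini-Hochberg adjustment, on log2(FPKM + 1) of 12452 genes with a mean of at least 1 FPKM, after the fit was tested on simulated data. Fold changes on this scale understate low genes. Loci and peaks are on mm9, 1-based. Strands and promoters came from RefSeq on GRCm38.p6 by accession or symbol. Genes that overlap or have near-identical copies are uncertain.

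The members, lists and rules were chosen with earlier results of these data known. Named genes were Wdr43 and, in each of 10 lists, by mean shCtl level, the 2 highest with both end peaks and the highest of each other class. Other members are named to spell out counts. Named regions were, of shared regions, the 3 with the best rank in both lists, and of each map-only set the 3 highest scores, with ties broken by width. Alternatives were the overlap rule, a score minimum, the end window, the pseudocount, the filter, the trend, centring, a replicate block and each library left out. The input and the construct, affinity purification and crosslinking samples were not analysed here.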

Additional observations from a re-analysis of the deposited data

How the results depend on the processing

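Shared portions under other rules (FB, then cFB-KI) were 40.0% and 69.7% with 400 bp around each centre, 53.5% and 75.6% with a score of at least 100, and 66.8% and 60.8% with the 20000 highest scores. The FB portion was 46.6% with 50% of the narrower peak and 44.7% with peaks within 500 bp merged. The cFB-KI portion was 73.9% without chromosomes 8, 11 and X, which were chosen after the data were seen. Values at ends follow for shared FB, FB-only, shared cFB-KI and cFB-KI-only peaks in turn. They were 56.4%, 8.31%, 61.7% and 24.0% with a 500 bp window, 65.8%, 17.5%, 65.5% and 29.8% with 2 kb, and 71.5%, 26.1%, 73.8% and 54.8% with a score of at least 100. With 400 bp around each centre the last 3 were 18.7%, 61.9% and 28.8%. FB-only peaks gave 12.7% with 50% of the narrower peak. Lists cut at 100 count a peak as map-only where the other map has a lower peak: 35.7% of FB-only and 54.5% of cFB-KI-only peaks of that setting. With the sets made from all peaks and then cut at 100, chosen after the data were seen, ends held 65.4%, 15.2%, 72.8% and 39.7%. Without the 3 chromosomes, shared FB gave 62.7%, FB-only 11.6% and cFB-KI-only 27.7%. The hypoP overlaps with 400 bp were 75.1%, 29.6%, 74.99% and 22.6% for library 1 and 75.1%, 30.1%, 74.9% and 23.3% for library 2, and the DMSO overlaps of the first 3 sets 66.1%, 36.8% and 67.3%. With a score of at least 100 they were 87.4%, 47.5%, 87.9% and 45.8%, then 87.3%, 47.4%, 87.8% and 47.2%, and for DMSO 79.2%, 64.2%, 84.6% and 38.9%. With the sets made first they were 82.3%, 37.3%, 83.5% and 30.8%, then 82.1%, 37.4%, 83.6% and 32.5%, and for DMSO 76.8%, 61.5%, 79.4% and 25.7%. The median shCtl level of loci with both peaks, the FB peak only and the cFB-KI peak only was 7.80, 3.08 and 0.55 FPKM with a 500 bp window. With 2 kb it was 6.95 FPKM for both and 1.20 for FB only, which was 1.85 with 400 bp around each centre and 1.60 without the 3 chromosomes. Shared peaks stayed above map-only peaks of the same map in every one of these end and overlap settings, and the map order of the shared portions turned with the 20000 highest scores.

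Genes lower and higher in shWDR43 (limma, adjusted p under 0.05) numbered 2593 and 402 of 22832 tested with no filter, and 2606 and 1615 with libraries centred. Centring made 61.7% of calls lower, against 87.5% without it. With a mean of at least 5 FPKM 472 were higher. Leaving out each library in turn gave 0 to 0 in both directions. There each fit has 1 library in an arm, assumed to vary like the other group. Median log2 fold changes (both, FB only, cFB-KI only, neither) were -0.50, -0.53, -0.46 and -0.43 with at least 5 FPKM, and -0.076, -0.076, 0.058 and 0.031 with libraries centred, the last 2 turned in sign. Among named genes, Rps27l (0.027), Bax (0.14) and Hist1h1a (0.29) turned in sign on centring, and Hist1h1a ranged from -0.41 to 0.32 when 1 library was left out, the highest without shCtl library 2. With the replicate number as a block, 5926 genes were lower and 840 higher. The correlation of the differences between libraries 1 and 2 in shCtl and in shWDR43 was 0.05 over 12452 genes, so the numbers are not shown to pair the samples. The causes of these shifts were not tested. Depth is unknown for the maps, and a peak that is not listed is not shown to be absent.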
